A study of Mus musculus with 24 samples.

Results

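Ifit1, Ifit2, Ifit3, Isg15, Irf7, Rsad2, Oas1a, Oasl2, Mx1 and Usp18 are mouse genes whose transcripts rise when type I interferon signals. These 10 type I interferon response genes were taken by symbol from a count table of 27179 genes. All 10 had enough counts to be among the 17824 genes tested, and none was dropped. They were followed in visceral (perigonadal) adipose tissue of mice aged 27 to 33 weeks, sequenced as whole-tissue RNA in 24 libraries of 6 groups, 4 libraries per group. Pparg knockout mice (labelled PpargFoxp3cre) lacked the nuclear receptor gene Pparg in regulatory T cells, where the Foxp3 gene drives the Cre recombinase. Tbet knockout mice (TbetFoxp3cre) lacked T-bet, the product of Tbx21, in the same cells. Control mice (Foxp3cre) carried the Cre alone, so the Cre allele was common to every group. Males and females of each genotype formed separate groups. The comparisons ask whether losing either factor in regulatory T cells went with a different level of these genes in the fat, and whether males differed from females.

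Each group held 2 libraries of each of 2 batches named in the titles, with replicates 1 and 3 in batch 1 and replicates 2 and 4 in batch 2. Library totals ranged from 8345575 to 31022845 counts, and the lowest totals belonged to Tbet knockout female replicates 2 and 4. For control female replicate 1 the title and the source name disagree on number and batch, and the title was followed. The labels do not say which libraries came from which animals, so every p-value reflects library-to-library spread, which may be technical. The titles use the same numbers in each batch, so a number recurs within a group. Whether libraries sharing a number came from the same animal is not stated. Adipocyte markers were present in every library, with Adipoq between 659 and 3980 CPM (read counts scaled to library size). The sexes matched the labels: Xist lay between 0.0379 and 23.3 CPM in males and between 549 and 1150 CPM in females. Deletion in a rare cell type cannot be read from whole tissue. Pparg itself lay between 64.8 and 362 CPM over all libraries, Tbx21 between 0.0751 and 2.65 CPM and Foxp3 between 0.0694 and 1.51 CPM, and none of the 3 was called in any knockout comparison. Epithelial markers summed to 1070 CPM in control female replicate 1, and to over 100 CPM in 8 libraries in all (called epithelial-marked here). The others were Pparg knockout female replicates 2 and 3, Pparg knockout male replicates 1 and 4, and control male replicate 2. Tbet knockout male replicates 2 and 4 were also among them, which leaves only batch 1 in that group. Fits without these libraries rest on smaller groups, which detect fewer changes. Why a call was lost in them was not tested. In whole tissue, fewer cells of a type and less RNA per cell cannot be told apart.

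Type I interferons are cytokines released when a cell senses foreign or misplaced nucleic acid. They bind the receptor made of Ifnar1 and Ifnar2, whose kinases Jak1 and Tyk2 activate Stat2, which acts with Irf9 to switch on target genes through a DNA element called the interferon-stimulated response element. In adipose tissue the same genes are read as a sign of interferon signalling in adipocytes, macrophages and other resident cells. Among the 10 genes, Irf7 encodes a transcription factor that amplifies interferon production. Isg15 encodes a ubiquitin-like protein that is attached to other proteins, and Usp18 the protease that removes it and dampens signalling at the receptor. Ifit1, Ifit2 and Ifit3 encode RNA-binding proteins with tetratricopeptide repeats. Oas1a encodes an oligoadenylate synthetase that activates RNase L, and Oasl2 a related protein. Rsad2 encodes the radical SAM enzyme viperin, and Mx1 is known for a dynamin-like GTPase that blocks influenza virus, although RefSeq lists the locus of the reference genome as a transcribed pseudogene.

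Promoter windows are shown because the genes are grouped by their response to interferon and the element that carries it can be read in the sequence. RefSeq windows of build GRCm38.p6, running from 250 bases before to 50 bases after a transcript start, were found for 8 of the 10 genes, with 2 windows for Ifit2. Mx1 and Usp18 had no entry. Each window is written 5′ to 3′ on the strand of its gene. Capitals mark the core of the response element, searched as GAAA, any 2 bases, GAAA, and on the other strand as TTTC, any 2 bases, TTTC. Positions are counted back from the transcript start.

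Ifit1, chr19:34640639-34640938, plus strand: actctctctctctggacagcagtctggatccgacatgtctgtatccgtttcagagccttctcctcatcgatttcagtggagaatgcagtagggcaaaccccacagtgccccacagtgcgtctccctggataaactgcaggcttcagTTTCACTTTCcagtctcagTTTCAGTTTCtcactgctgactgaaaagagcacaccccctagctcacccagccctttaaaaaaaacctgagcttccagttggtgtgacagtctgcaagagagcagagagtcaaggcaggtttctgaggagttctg

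Ifit3, chr19:34583279-34583578, plus strand: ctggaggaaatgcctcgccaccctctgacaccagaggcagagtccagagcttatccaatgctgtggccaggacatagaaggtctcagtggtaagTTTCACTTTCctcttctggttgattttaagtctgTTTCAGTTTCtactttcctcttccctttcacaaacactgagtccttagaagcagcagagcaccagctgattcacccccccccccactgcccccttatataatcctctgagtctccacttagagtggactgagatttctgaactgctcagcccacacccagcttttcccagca

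Isg15, chr4:156200769-156201068, minus strand: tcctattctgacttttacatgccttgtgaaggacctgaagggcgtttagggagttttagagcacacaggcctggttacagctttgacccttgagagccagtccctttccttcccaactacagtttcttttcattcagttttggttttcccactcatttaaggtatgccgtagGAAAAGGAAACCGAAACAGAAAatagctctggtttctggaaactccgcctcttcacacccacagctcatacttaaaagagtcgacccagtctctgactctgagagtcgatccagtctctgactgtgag

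Rsad2, chr12:26456403-26456702, minus strand: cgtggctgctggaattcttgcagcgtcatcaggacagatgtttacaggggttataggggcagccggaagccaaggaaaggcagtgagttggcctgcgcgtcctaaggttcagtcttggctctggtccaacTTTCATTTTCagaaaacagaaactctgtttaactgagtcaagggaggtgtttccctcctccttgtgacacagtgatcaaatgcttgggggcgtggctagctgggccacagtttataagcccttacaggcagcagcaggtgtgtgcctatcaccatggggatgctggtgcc

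Oas1a, chr5:120907476-120907775, minus strand: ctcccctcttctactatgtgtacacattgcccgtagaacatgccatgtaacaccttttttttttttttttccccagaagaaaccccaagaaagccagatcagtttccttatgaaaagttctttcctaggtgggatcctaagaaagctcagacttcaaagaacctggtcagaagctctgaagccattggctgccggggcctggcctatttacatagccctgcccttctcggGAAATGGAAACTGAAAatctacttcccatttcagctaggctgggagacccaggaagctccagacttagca

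Irf7, chr7:141266375-141266674, minus strand: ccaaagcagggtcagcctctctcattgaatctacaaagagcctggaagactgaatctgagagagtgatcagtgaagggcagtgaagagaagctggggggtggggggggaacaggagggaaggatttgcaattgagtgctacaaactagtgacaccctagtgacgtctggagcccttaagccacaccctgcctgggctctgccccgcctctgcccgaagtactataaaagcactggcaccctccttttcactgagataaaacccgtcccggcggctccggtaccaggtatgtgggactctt

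The core stood at −104 to −95 and at −85 to −76 in the Ifit1 window. In the Ifit3 window it stood at −156 to −147 and at −122 to −113. Ifit1 and Ifit3 held the same 2 versions of the core, TTTCACTTTC and then TTTCAGTTTC, in the same order. The Isg15 window held 3 overlapping copies between −78 and −57, and the Oas1a window 2 overlapping copies between −20 and −5. Rsad2 held a single copy at −120 to −111. Neither window of Ifit2 nor those of Irf7 and Oasl2 held these letters, so Irf7 is shown as a member without a match. In all, 5 of the 9 windows (55.6%) held the core, against 3.44% of 32851 RefSeq windows of the same length, 44.0% of 50 windows of other interferon-stimulated genes and 76.9% of 13 windows of GTPases and chemokines induced mainly by interferon gamma. A match describes the letters only, and its absence says nothing about factor binding.

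Per transcript length, Ifit3 was the most abundant of the genes and Mx1 the least. On the log2 FPKM scale that the authors deposited, means over the 24 libraries were 4.42 ± 0.56 for Ifit3 and 4.13 ± 0.49 for Irf7 (SD). Oasl2 (3.65 ± 0.60) and Isg15 (3.62 ± 0.64) came next, followed by Rsad2 (2.96 ± 0.64) and Ifit2 (2.80 ± 0.38). Ifit1 (2.23 ± 0.65), Usp18 (2.10 ± 0.66) and Oas1a (1.94 ± 0.68) lay close together, and Mx1 was at 0.85 ± 0.68. The steps from Isg15 to Rsad2 and from Oas1a to Mx1 were the only neighbouring ones larger than both genes' SD. Every gene was detected in every library, from 33 counts at the least (Mx1) to 2389 at the most (Oasl2).

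The level of most of these genes differed several-fold between libraries. Levels given below are CPM scaled by the trimmed mean of M values (TMM). Over all 24 libraries Mx1 spanned 10.4-fold from its lowest to its highest, Usp18 7.80-fold and Ifit1 6.40-fold, while Ifit2 was the steadiest at 2.36-fold. Summed over the 10 genes, Pparg knockout males had 242 ± 32.2 CPM, Tbet knockout males 218 ± 20.9 CPM and control males 192 ± 50.7 CPM. Pparg knockout females had 225 ± 81.2 CPM, Tbet knockout females 279 ± 99.1 CPM and control females 202 ± 79.3 CPM (SD, n = 4 each). The ranges of all 6 groups overlapped. Tbet knockout female replicate 2 was among the 3 highest libraries for 10 of the 10 genes and the highest for 5 of them. Control female replicate 3 was the lowest library for 6 genes.

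**Figure D1:**
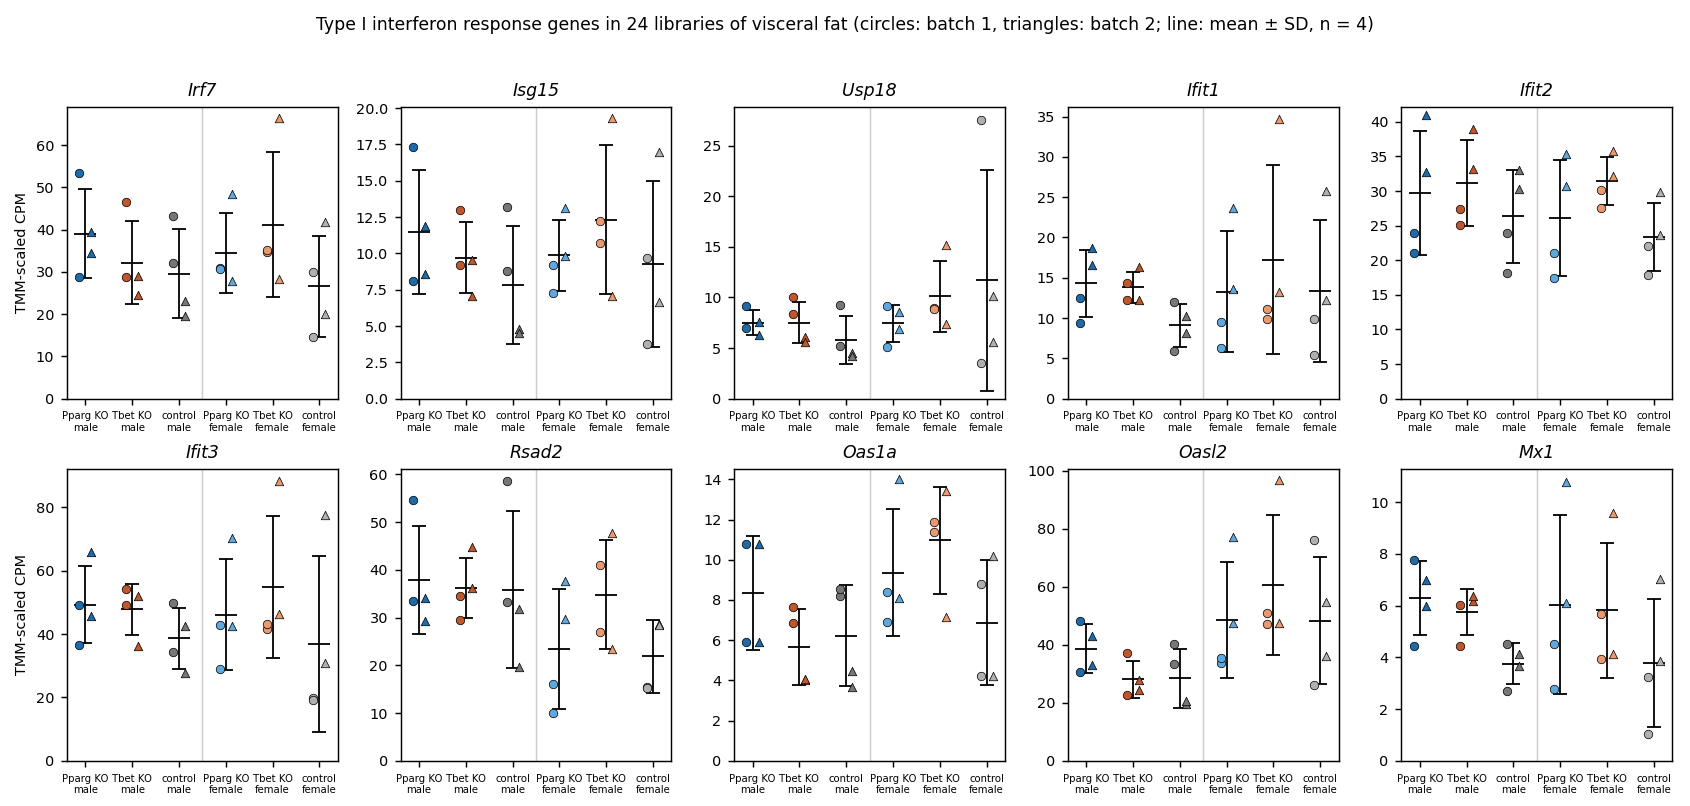
TMM-scaled CPM (linear axis) of each of the 10 genes in every library, by group, with circles for batch 1, triangles for batch 2, and the mean ± SD of 4 libraries. Libraries of a group spread widely for most genes, as with Usp18 at 27.5 CPM in control female replicate 1, and the groups overlap almost everywhere.

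In Tbet knockout females against control females, 9 of the 10 genes had positive log2 fold changes, but none passed the test. Fold changes had a median of 0.53 and ran from −0.14 for Usp18 to 0.70 for Rsad2 and Mx1, with SE between 0.13 and 0.43. The median over all genes tested was −0.04, and 44.3% of all genes were positive. edgeR's quasi-likelihood test with Benjamini-Hochberg adjustment over all genes (the test used for every call below, at 0.05) called 0 of the 10, against 1.22% of all genes. At an unadjusted p under 0.05, 1 of the 10 was higher and 0 were lower, against 7.91% and 9.41% of all genes. None of the 10 had 4 knockout libraries wholly above or below the 4 control libraries, which held for 2.83% and 2.14% of all genes.

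That gene was Ifit2, which had 30.2, 35.8, 27.5 and 32.2 CPM in Tbet knockout females, against 17.9, 29.8, 22.1 and 23.6 CPM in control females. The groups overlapped only at control replicate 2, a batch 2 library. Within each batch both knockout libraries lay above both control libraries. Its log2 fold change was 0.45 (SE 0.13, 95% interval 0.17 to 0.72, adjusted p = 0.0969 with edgeR). It passed with DESeq2 (adjusted p = 0.0276), with limma-voom (0.0282) and with limma on the deposited log2 FPKM (0.0452). Within batches the fold change was 0.54 in batch 1 and 0.35 in batch 2, and it ran from 0.37 to 0.53 when each library was left out.

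Rsad2 had 27.0, 47.8, 41.0 and 23.5 CPM in Tbet knockout females, against 15.4, 28.6, 15.2 and 28.4 CPM in control females. Its log2 fold change was 0.70 (SE 0.37, adjusted p = 0.343 with edgeR). Oas1a had 11.9, 13.4, 11.4 and 7.17 CPM in Tbet knockout females, against 8.82, 10.2, 4.22 and 4.21 CPM in control females, which gave 0.66 on the log2 scale (SE 0.36, adjusted p = 0.352). For both genes Tbet knockout replicate 4 lay within the control range and the other 3 knockout libraries, apart from Rsad2 in replicate 1, lay above it.

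Ifit3 (0.62), Irf7 (0.63) and Mx1 (0.70) had log2 fold changes of like size, with SE of 0.34 to 0.39 and adjusted p of 0.351 to 0.369 by edgeR. Ifit3 was high in single libraries of both groups, at 88.1 CPM in Tbet knockout replicate 2 and at 77.6 CPM in control replicate 2. Isg15 (0.40), Ifit1 (0.38) and Oasl2 (0.32) were lower on the list, and Oasl2 and Ifit1 came to −0.00 and −0.02 without Tbet knockout replicate 2. Usp18 came to 0.63 without control replicate 1. The median of the 10 genes was 0.32 without Tbet knockout replicate 2 and 0.87 without control replicate 2, with 0 called each time. It was 0.73 in batch 1, where Ifit3 was called (1.12, adjusted p = 0.0357), and 0.34 in batch 2, where 0 were called.

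Markers of other cells moved in the same comparison. The 12 macrophage markers summed to between 1300 and 1770 CPM in Tbet knockout females and to between 456 and 1120 CPM in control females. Of these 12, 11 had positive fold changes (median 0.81), with 0 called. At an unadjusted p under 0.05, 9 were higher and 0 lower, against 7.91% and 9.41% of all genes. The 10 T and NK cell markers summed to between 17 and 59.4 CPM in Tbet knockout females and to between 8.28 and 24 CPM in control females. No marker of either list was at 0 throughout a group. Positive values were also had by 7 of 8 adipocyte, 6 of 6 endothelial, 6 of 6 stromal, 5 of 6 B cell and 3 of 3 tested neutrophil markers. Plasmacytoid dendritic cell (4 of 8) and mesothelial markers (3 of 5) were mixed. Epithelial markers had 0 of 8 positive (median −4.34), and control replicate 1 held 1070 CPM of them. None of these markers was called. Their part in the result was not tested.

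In Tbet knockout males against control males, 7 of the 10 genes had positive log2 fold changes (median 0.28, against −0.01 over all genes) and 0 were called, against 0.00561% of all genes. None had an unadjusted p under 0.05, against 2.17% of all genes higher and 2.2% lower at that level, and no other tool called any of the 10. Ifit1 had 12.3, 16.3, 14.4 and 12.3 CPM in Tbet knockout males, against 5.92, 8.18, 12 and 10.3 CPM in control males. It was the only one of the 10 whose 4 knockout libraries all lay above the 4 control libraries, which held for 0.752% of all genes. The knockout minimum and the control maximum differed by little, and the log2 fold change was 0.60 (SE 0.36, adjusted p = 1.0 with edgeR).

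Mx1 had 6.04, 6.18, 4.44 and 6.39 CPM in Tbet knockout males, against 2.70, 3.66, 4.53 and 4.12 CPM in control males. Only knockout replicate 3 fell within the control range, and the log2 fold change was 0.60 (SE 0.39, adjusted p = 1.0 with edgeR). Ifit2 had 27.4, 39.0, 25.1 and 33.2 CPM in Tbet knockout males, against 18.1, 33.1, 23.9 and 30.3 CPM in control males (log2 fold change 0.25, SE 0.13). Taken over both batches these values overlapped broadly, with batch 2 libraries the higher in each group. Within each batch both knockout libraries lay above both control libraries, in batch 2 only just (33.2 against 33.1 CPM). The log2 fold change was 0.34 in batch 1 and 0.2 in batch 2, and Ifit2 was called in neither. Rsad2, Oas1a and Oasl2 had values of −0.03, −0.13 and −0.03. Leaving out control male replicate 3 put the median of the 10 at 0.48, and leaving out replicate 2 put it at 0.13. Macrophage markers summed to between 1270 and 1560 CPM in Tbet knockout males and to between 1440 and 2110 CPM in control males. Their part in the result was not tested.

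Averaged over males and females, all 10 genes had positive values in Tbet knockouts (median 0.35, against −0.02 over all genes). None was called by edgeR, against 0.0281% of all genes, and 2 had an unadjusted p under 0.05, against 4.84% of all genes that were higher and 6.42% that were lower at that level. The adjusted calls over all genes were 0.0168% higher and 0.0112% lower. Ifit2 had a mean log2 fold change of 0.35 (SE 0.09, 95% interval 0.16 to 0.54, adjusted p = 0.169 with edgeR). DESeq2 and limma-voom called it, at adjusted p = 0.0244 and 0.033. Mx1 had 0.65 (SE 0.27, interval 0.08 to 1.22, adjusted p = 0.392).

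In Pparg knockout females against control females, the 10 genes had no shift larger than the spread between libraries. The median log2 fold change was 0.11, against −0.02 over all genes. None of the 10 was called by edgeR, against 0.0168% of all genes (0.0112% higher), and no other tool called any. At an unadjusted p under 0.05 there were 0, against 5.54% of all genes higher and 6.4% lower. No gene of the 10 had groups that did not overlap, against 1.35% of all genes higher and 1.09% lower. Mx1 had 4.51, 6.09, 2.77 and 10.8 CPM in Pparg knockout females, against 3.25, 7.02, 1.04 and 3.87 CPM in control females (log2 fold change 0.69, SE 0.39, adjusted p = 0.502). The highest and lowest of these 8 libraries, knockout replicate 4 and control replicate 3, set the width of both groups. Usp18 had the only negative value, −0.58 (SE 0.43), and it was 0.19 without control replicate 1. The median was −0.03 without Pparg knockout replicate 4 and 0.49 without control replicate 2. Macrophage markers summed to between 782 and 2680 CPM in Pparg knockout females, highest in replicate 4, and to between 456 and 1120 CPM in control females. Of these 12, 11 had positive fold changes (median 0.77), with 8 higher and 0 lower at an unadjusted p under 0.05, and 0 were called. Their part in the result was not tested.

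In Pparg knockout males against control males, all 10 genes had positive log2 fold changes, from 0.07 for Rsad2 to 0.75 for Mx1. The median was 0.42, against −0.01 over all genes. edgeR called 0 of the 10 and 0.0% of all genes. At an unadjusted p under 0.05 there were 0 of the 10, against 1.37% of all genes higher and 1.18% lower. The groups overlapped for all 10, and did not for 0.898% of all genes higher and 0.623% lower. Mx1 had 7.75, 5.99, 4.44 and 6.98 CPM in Pparg knockout males, against 2.70, 3.66, 4.53 and 4.12 CPM in control males. The groups overlapped only where knockout replicate 3 lay just under control replicate 3, and the log2 fold change was 0.75 (SE 0.39, 95% interval −0.06 to 1.55, adjusted p = 1.0 with edgeR). Over all genes, DESeq2 called 6, limma-voom 1 and limma on log2 FPKM 1.

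Ifit1 had 12.5, 18.7, 9.44 and 16.6 CPM in Pparg knockout males, against 5.92, 8.18, 12 and 10.3 CPM in control males, which gave 0.57 on the log2 scale (SE 0.36). Isg15 had 17.3, 11.9, 8.11 and 8.55 CPM in Pparg knockout males, against 8.80, 4.77, 13.2 and 4.54 CPM in control males, or 0.56 on the log2 scale (SE 0.42). For both genes control replicate 3 was the highest control and lay inside the knockout range. The median of the 10 genes was 0.28 without Pparg knockout male replicate 1 and 0.66 without control male replicate 3. In batch 1 it was 0.13 and in batch 2 0.76, and without the libraries holding over 100 CPM of epithelial markers it was 0.14. T and NK cell markers summed to between 22.2 and 43.4 CPM in Pparg knockout males and to between 12.4 and 36.3 CPM in control males. B cell markers had 6 of 6 positive values (median 1.29, 0 called) and summed to between 7.12 and 142 CPM in Pparg knockout males and to between 18.0 and 57.1 CPM in control males. Their part in the result was not tested.

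Averaged over males and females, Pparg knockouts had a median of 0.31 over the 10 genes, 9 of them positive, against −0.02 over all genes. None was called, against 0.00561% of all genes. Mx1 alone had an unadjusted p under 0.05, with a log2 fold change of 0.72 (SE 0.27, 95% interval 0.15 to 1.29, adjusted p = 0.569 with edgeR), against 4.33% of all genes that were higher and 3.73% that were lower at that level. No other tool called any of the 10. The control libraries served both knockouts, so the positive values for Mx1 in the 2 genotypes rest on the same controls.

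**Figure D2:**
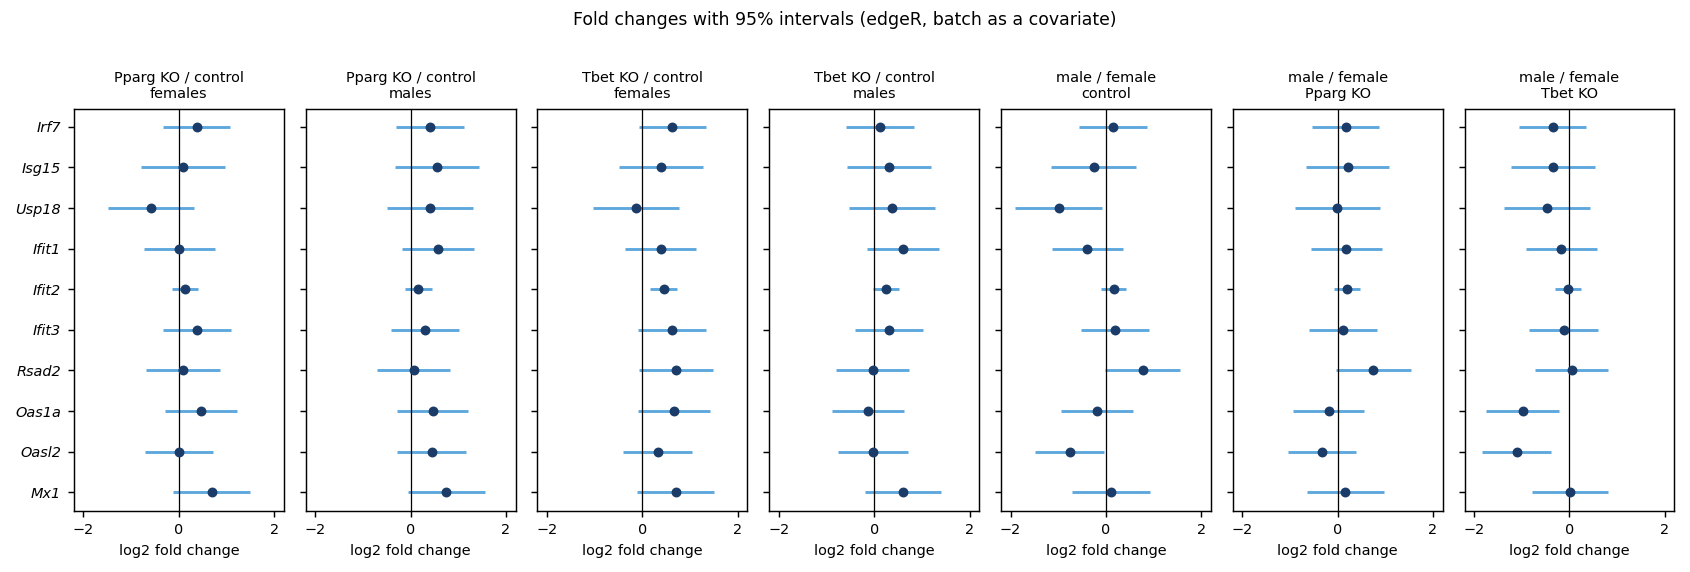
Log2 fold change (horizontal axis) of each gene in 7 comparisons, with 95% intervals from edgeR's fit. In the 4 knockout comparisons most points lie to the right of 0 and most intervals cover 0, while Ifit2 has the narrowest interval.

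The knockout effect was not shown to differ between males and females for any of the 10 genes. For Pparg the effect in males minus that in females had a median of 0.05 (0.02 over all genes), and 0 of 10 were called, against 0.0% of all genes. The widest difference was that of Usp18, 0.99 (SE 0.61, 95% interval −0.29 to 2.26, adjusted p = 0.819 with edgeR), and it was 0.19 without control female replicate 1. For Tbet the median was −0.25 (0.03 over all genes), and 0 of 10 were called, against 0.00561% of all genes. Oas1a had −0.80 (SE 0.51, interval −1.86 to 0.27, adjusted p = 0.557). None of the 10 had an unadjusted p under 0.05 in either difference, which 3.16% of all genes had in the higher and 2.98% in the lower direction for Pparg. For Tbet these shares were 5.89% and 5.62%. DESeq2, limma-voom and limma on log2 FPKM called 0 of the 10 as well, and over all genes 83, 0 and 0 for Pparg and 278, 13 and 9 for Tbet. For every gene but Ifit2 the interval reached beyond 1 log2 unit.

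Between males and females the 10 genes had mixed signs. In controls the median log2 fold change of males over females was −0.04, the same as over all genes (−0.04), with 5 positive and 5 negative. edgeR called 0 of the 10, against 27.2% of all genes. Usp18 and Oasl2 were lower at an unadjusted p under 0.05, as were 19.8% of all genes, and 0 of the 10 were higher, against 19.7%. The groups overlapped for all 10, and did not for 7.84% of all genes higher and 7.85% lower. Usp18 had 5.16, 4.52, 9.30 and 4.21 CPM in control males, against 27.5, 10.1, 3.52 and 5.6 CPM in control females. The female range enclosed the male one, and the log2 fold change was −0.99 (SE 0.43, adjusted p = 0.095 with edgeR).

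Oasl2 had 33.3, 19.5, 40.4 and 20.7 CPM in control males, against 76.0, 54.8, 26.2 and 36.2 CPM in control females (−0.76 on the log2 scale, SE 0.35, adjusted p = 0.109 with edgeR). Both genes were highest in control female replicate 1, the library with 1070 CPM of epithelial markers, and without it their values were −0.18 for Usp18 and −0.39 for Oasl2. Without control female replicate 3 Usp18 was called (−1.30, adjusted p = 0.0227).

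Rsad2 went the other way, with 33.2, 19.6, 58.7 and 31.7 CPM in control males, against 15.4, 28.6, 15.2 and 28.4 CPM in control females. Its log2 fold change was 0.77 (SE 0.37, adjusted p = 0.131 with edgeR), and without control male replicate 2 it was called (1.04, adjusted p = 0.0461). The difference lay in batch 1, at 1.55, and was −0.14 in batch 2. The median of the 10 genes likewise was 0.51 in batch 1 and −0.73 in batch 2, so the direction between control males and control females differed between batches.

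In Pparg knockouts the median of males over females was 0.17 (0.01 over all genes), and edgeR called 0 of 10, against 8.77% of all genes, with 0 of 10 at an unadjusted p under 0.05, against 12.9% of all genes higher and 13.6% lower. The adjusted calls over all genes were 3.59% higher and 5.18% lower. The groups overlapped for all 10, and did not for 3.97% of all genes higher and 5.09% lower. Rsad2 was again the highest, with 33.4, 34.2, 54.6 and 29.2 CPM in Pparg knockout males, against 10.1, 29.7, 16.2 and 37.7 CPM in Pparg knockout females (log2 fold change 0.75, SE 0.37, adjusted p = 0.207). Female batch 1 libraries were the low ones here, and the value was 1.70 in batch 1, where it was called (adjusted p = 0.0196), and −0.09 in batch 2.

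In Tbet knockouts the 10 genes leaned to lower values in males, with 8 negative and a median of −0.26 (0.03 over all genes). edgeR called 0 of the 10, against 9.31% of all genes, and 2 were lower at an unadjusted p under 0.05, against 12.8% of all genes (13.1% were higher). Oasl2 had 37.3, 24.4, 22.8 and 27.7 CPM in Tbet knockout males, against 50.9, 96.7, 47.2 and 47.4 CPM in Tbet knockout females. All 4 male libraries lay below all 4 female libraries, as they did for 6.78% of all genes, while 5.66% lay the other way. The log2 fold change was −1.10 (SE 0.35, 95% interval −1.83 to −0.38, adjusted p = 0.0522 with edgeR), just outside the threshold.

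Oasl2 was called by DESeq2 (adjusted p = 0.0176), by limma-voom (0.022) and by limma on log2 FPKM (0.0499), and by edgeR without Tbet knockout male replicate 1 (−1.28, adjusted p = 0.0495). Without Tbet knockout female replicate 2 it was −0.78. Oas1a had 7.67, 4.02, 6.85 and 4.06 CPM in Tbet knockout males, against 11.9, 13.4, 11.4 and 7.17 CPM in Tbet knockout females. Only female replicate 4 reached into the male range, and the log2 fold change was −0.98 (SE 0.36, adjusted p = 0.0955 with edgeR). limma-voom called it (adjusted p = 0.0487). The median of the 10 genes was −0.01 without Tbet knockout female replicate 2. It was −0.03 in batch 1, −0.68 in batch 2 and 0.04 without the libraries holding over 100 CPM of epithelial markers. T and NK cell markers had 8 of 10 negative values (median −0.67) and B cell markers 6 of 6 (median −0.62), with 0 called in either list. Called lower were 2 of 6 stromal and 2 of 5 mesothelial markers, against 5.38% of all genes. Among controls 3 stromal and 1 mesothelial marker were called lower in males as well, against 13.6% of all genes. Among Pparg knockouts 1 of each list was, against 5.18%. In Tbet knockouts epithelial markers had 6 of 8 positive values (median 2.69) and endothelial markers 6 of 6, with 0 called. Called higher were 1 of 12 macrophage, 1 of 8 adipocyte and 1 of 3 tested neutrophil markers, against 3.93% of all genes. T and NK cell markers summed to between 15.4 and 33.7 CPM in Tbet knockout males and to between 17 and 59.4 CPM in Tbet knockout females. Their part in the result was not tested.

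Within a library most of the genes moved together. After each batch's mean was subtracted, Isg15 followed the mean of the other 9 genes most closely over the 24 libraries, with Pearson r = 0.95 and Spearman rho = 0.95. Irf7 (r = 0.92, rho = 0.84) and Ifit1 (r = 0.90, rho = 0.91) came next, then Ifit3, Oas1a and Mx1 (r = 0.80 each). Oasl2 (0.69) and Usp18 (0.67) followed. Rsad2 (r = 0.43, rho = 0.38) and Ifit2 (r = 0.39, rho = 0.50) followed the others least. Over the 45 pairs r had a median of 0.63 and ran from 0.06 to 0.92.

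These correlations share library scaling and tissue makeup, and they are given as a description. Leaving out the libraries farthest from the median, Tbet knockout female replicate 2 and control female replicate 3, gave r = 0.92 for Isg15, 0.86 for Irf7, 0.43 for Ifit2 and 0.29 for Rsad2. With group means removed as well, Isg15 and Irf7 kept r of 0.95 and 0.92. The correlation thus held among libraries of the same group, as it did for Oasl2 (0.86) and Rsad2 (0.52), while Ifit2 had 0.23.

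**Figure D3:**
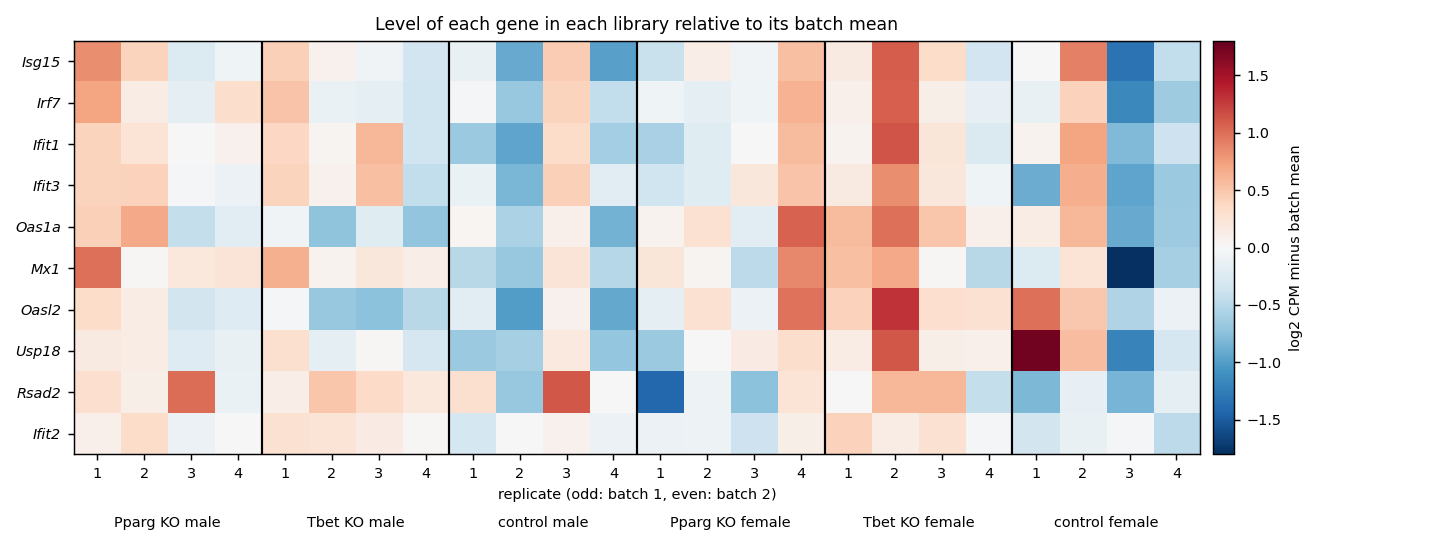
Level of each gene in each library as log2 CPM minus the mean of its batch, with libraries in columns by group and genes in rows. Tbet knockout female replicate 2 is high and control female replicate 3 low for nearly all rows, while Rsad2 and Ifit2 depart from the others.

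Among 13417 candidates, the 10 genes outside the set that followed its mean most closely were Rnf213, a ubiquitin ligase (r = 0.91), Adar, an RNA-editing enzyme (0.89), Xaf1 (0.89), the GTPase Ifi47 (0.87), the Z-nucleic-acid sensor Zbp1 (0.86), Cmpk2, a nucleotide kinase (0.85), Gbp3 (0.85), Stat2 (0.85), Rtp4 (0.85) and Tap2, a peptide transporter (0.84). Spearman rho for these ran from 0.78 to 0.91, and r without the same 2 libraries from 0.76 to 0.88. All candidates together had a median r of 0.01, with the 5th and 95th percentiles at −0.41 and 0.43. Of the 10, 9 were on one of the pathway lists described next, Tap2 being the exception.

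Transcripts of the interferons themselves were few. Ifna1, Ifna2, Ifna4, Ifna5, Ifnl2 and Ifnl3 had 0 counts in all 24 libraries, Ifnb1 had 1 count in 1 library and Ifnk 2 counts in all. Ifne, another type I interferon, had 45 counts in 4 libraries and reached 2.26 CPM. Interferon gamma (Ifng) reached 3.31 CPM at most. Of 15 ligand and receptor genes 6 had enough counts to be tested. The receptor genes were abundant, with Ifnar1 between 58.4 and 92.5 CPM and Ifnar2 between 67.1 and 148 CPM.

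Ligand and receptor genes were called between the sexes and, with all libraries, in no knockout comparison. In Tbet knockout females over control females 3 of the 6 were higher at an unadjusted p under 0.05, against 7.91% of all genes. Among them was Ifnar2 (0.47, SE 0.17, adjusted p = 0.168 with edgeR). In that comparison 2 of the 6 were called in batch 1 alone, where 619 of all genes were called. In batch 1 alone 2 were also called lower in the Tbet effect in males minus that in females, and the share of all genes called in that fit is not given here. In control males over control females 3 of the 6 were called higher, against 13.6% of all genes. In control males Ifnar1 averaged 85.8 ± 2.43 CPM, against 67.0 ± 8.47 CPM in control females, and rose by 0.37 on the log2 scale (SE 0.08, adjusted p = 0.0027 with edgeR). Ifnar2 averaged 118 ± 27.2 CPM in control males and 74.8 ± 8.19 CPM in control females (0.64, SE 0.17, adjusted p = 0.0111). Neither was called between males and females of the knockouts, where Ifnar1 had 0.19 in Pparg knockouts (adjusted p = 0.124) and 0.09 in Tbet knockouts (0.512), and Ifnar2 had 0.16 (0.583) and −0.00 (0.999), by edgeR. Ifngr1, the interferon gamma receptor chain, was higher in males in all 3 genotypes, by 1.14 in Pparg knockouts, 0.77 in Tbet knockouts and 1.49 in controls on the log2 scale. The call for Tbet knockouts (adjusted p = 0.0402) was lost without any of the 8 libraries. Macrophage markers moved with these receptors: 10 of 12 were called higher in control males, against 13.6% of all genes, their sum lying between 1440 and 2110 CPM in control males and between 456 and 1120 CPM in control females. Of 6 endothelial markers 4 were called higher, their sum lying between 1300 and 2530 CPM in control males and between 427 and 1090 CPM in control females. Their part in the result was not tested. Without the libraries holding over 100 CPM of epithelial markers, Ifngr1 was not called in Pparg knockouts or Tbet knockouts.

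Among 20 nucleic acid sensing genes, edgeR with all libraries called 1 in the knockout comparisons. The call was in Tbet knockout females, where 0.583% of all genes were called higher. There DESeq2 called 3 of the 20 and 1272 of all genes, and edgeR in batch 1 alone 2 of the 20 and 619 of all genes. In Pparg knockout females DESeq2 called 1 of the 20 and 421 of all genes. Samhd1, which degrades deoxynucleotides, averaged 176 ± 29.3 CPM in Tbet knockout females and 96.5 ± 24.5 CPM in control females (log2 fold change 0.90, SE 0.21, adjusted p = 0.0413 with edgeR). The call was lost when any library but Tbet knockout replicate 4 was left out, and without the libraries holding over 100 CPM of epithelial markers. Between the sexes Tlr7, an RNA sensor on the X chromosome, was higher in control males (0.84, adjusted p = 0.0305 with edgeR). The kinase gene Tbk1 was higher in Pparg knockout males (0.28, adjusted p = 0.0209 with edgeR). Each was the only 1 of the 20 called higher there, against 13.6% of all genes in controls and 3.59% in Pparg knockouts. In batch 1 alone 8 of the 20 were called higher in control males, where 5812 of all genes were called in either direction. In batch 2 alone 0 of the 20 were called there. Tlr7 was not called without control female replicate 1 or 3 or control male replicate 1 or 3, nor Tbk1 without Pparg knockout female replicate 1 or male replicate 1 or 2, and neither was called without the epithelial-marked libraries.

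Of 12 interferon signalling genes 0 were called in the 4 knockout comparisons within a sex by edgeR with all libraries. In Tbet knockout females edgeR in batch 1 alone called 3 (619 of all genes) and DESeq2 1 (1272 of all genes). In Pparg knockout females DESeq2 called 1 (421 of all genes). Stat2 had log2 fold changes of 0.56 in Tbet knockout females (SE 0.24, adjusted p = 0.231), 0.21 in Tbet knockout males, 0.22 in Pparg knockout females and 0.26 in Pparg knockout males. Irf9 had 0.23 in Tbet knockout females (SE 0.17, adjusted p = 0.516), 0.22 in Tbet knockout males, 0.08 in Pparg knockout females and 0.38 in Pparg knockout males (unadjusted p = 0.0392, adjusted p = 1.0), all by edgeR. Ptpn11, a phosphatase of cytokine signalling, was higher in males in all 3 genotypes, by 0.65 in Pparg knockouts (not called without the epithelial-marked libraries), 0.63 in Tbet knockouts and 0.75 in controls on the log2 scale. It was the only 1 of the 12 called higher in each. The shares of all genes were 3.59% in Pparg knockouts, 3.93% in Tbet knockouts and 13.6% in controls. Socs1, an inhibitor of Jak kinases, averaged 2.48 ± 0.630 CPM in control males and 6.02 ± 2.73 CPM in control females. It fell by 1.27 on the log2 scale (SE 0.34, adjusted p = 0.00948 with edgeR), the only 1 of the 12 called lower there, against 13.6% of all genes. Batch 1 alone had 4 of the 12 called higher in control males and 2 lower, and batch 2 alone 1 higher and 0 lower.

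A wider list of 50 other type I interferon-stimulated genes was read beside the 10. In Tbet knockout females 48 of 50 had positive fold changes with a median of 0.56, 26 were higher at an unadjusted p under 0.05, against 7.91% of all genes, and 0 were called by edgeR. DESeq2 called 7 of the 50 and 1272 of all genes, edgeR in batch 1 alone 11 of the 50 and 619 of all genes, and edgeR in batch 2 alone 0 of the 50 and 119 of all genes. In Tbet knockout males 29 of 50 were positive (median 0.04) and 0 were called. In Pparg knockout females 43 and in Pparg knockout males 44 were positive (medians 0.33 and 0.26), with 0 called in either. Copies close to the 10 genes were among them: Ifit3b averaged 21.4 ± 11.9 CPM in Tbet knockout females and 14.6 ± 9.57 CPM in control females, and Oas1g 5.69 ± 2.41 CPM in Tbet knockout females and 3.52 ± 1.81 CPM in control females.

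In Tbet knockout males against Tbet knockout females 5 of these 50 genes fell, against 5.38% of all genes that were lower. The 3 with the smallest adjusted p were Apol9a (−2.25, SE 0.49, adjusted p = 0.00733), Oas2, another oligoadenylate synthetase (−1.48, SE 0.37, adjusted p = 0.0162), and Ifi44 (−1.33, SE 0.36, adjusted p = 0.0246), by edgeR. Apol9a averaged 1.93 ± 0.533 CPM in Tbet knockout males and 9.21 ± 3.15 CPM in Tbet knockout females. The count of 5 was 1 without Tbet knockout female replicate 2 or Tbet knockout male replicate 2 or 3, 2 without female replicate 1 or male replicate 4, and 0 without the epithelial-marked libraries. In controls 5 of the 50 were higher in males, against 13.6% of all genes, among them Lgals3bp (1.0), Parp9 (0.86) and Slfn5 (0.83), and 1, Ifi44, was lower (−1.13), also against 13.6% of all genes. The count lower was 0 without control female replicate 1 or 2 or control male replicate 1, 2 or 4, and 4 without control male replicate 3. The count higher was 3 without control female replicate 1 or control male replicate 1, 2 without control female replicate 3 and 1 without control male replicate 3. In batch 1 alone 15 of the 50 were called higher in control males and 0 lower, where 5812 of all genes were called in either direction. In batch 2 alone 0 were called higher and 3 lower.

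Among 18 GTPases and chemokines induced mainly by interferon gamma, 5 rose in Tbet knockout females over control females, against 0.583% of all genes, and 14 were higher at an unadjusted p under 0.05. The median was 1.15. Tgtp1 averaged 109 ± 48.5 CPM in Tbet knockout females and 30.6 ± 15.0 CPM in control females (log2 fold change 1.85, SE 0.39, adjusted p = 0.0275 with edgeR). Gbp4 had 149 ± 98.1 CPM in Tbet knockout females and 40.9 ± 16.4 CPM in control females, and Gbp5 58.1 ± 26.3 CPM in Tbet knockout females and 22.7 ± 8.60 CPM in control females. Leaving out Tbet knockout female replicate 2 or 3, or control female replicate 3 or 4, brought the count to 0, and leaving out replicate 1 of either group brought it to 1. It was 13 in batch 1 alone, 0 in batch 2 alone and 0 without the epithelial-marked libraries, where 619, 119 and 151 of all genes were called, against 218 with all libraries. DESeq2 with all libraries called 12 of the 18 and 1272 of all genes. For the Tbet mean over both sexes DESeq2 called 6 of the 18 and 315 of all genes, and edgeR 0 of the 18. Macrophage, T and NK cell and other markers moved in the same comparison, as given above. In Pparg knockout males 18 of 18 were positive (median 0.63), in Pparg knockout females 16 (median 0.40) and in Tbet knockout males 17 (median 0.34), with 0 called in each. In control males over females Gbp9 was called higher and Gbp8 lower, 1 of 18 each, against 13.6% of all genes each way. The count higher was 0 without replicate 3 of either group, and the count lower 0 without replicate 1 of either. In batch 1 alone 10 of the 18 were called higher and 1 lower, where 5812 of all genes were called in either direction. In batch 2 alone 0 of the 18 were called. In Tbet knockout males over females 12 were lower at an unadjusted p under 0.05 (median −0.81), against 12.8% of all genes. For the Tbet effect in males minus females 7 were lower at that level (median −1.02), against 5.62%, with 0 called in both with all libraries. In batch 1 alone edgeR called 5 of the 18 lower for this difference and 2 for Tbet knockout males over females. The share of all genes called in those fits is not given here. Of 12 macrophage markers 9 were lower for this difference at an unadjusted p under 0.05 (median −1.23), with 0 positive and 0 called. Their part in the result was not tested.

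**Figure D4:**
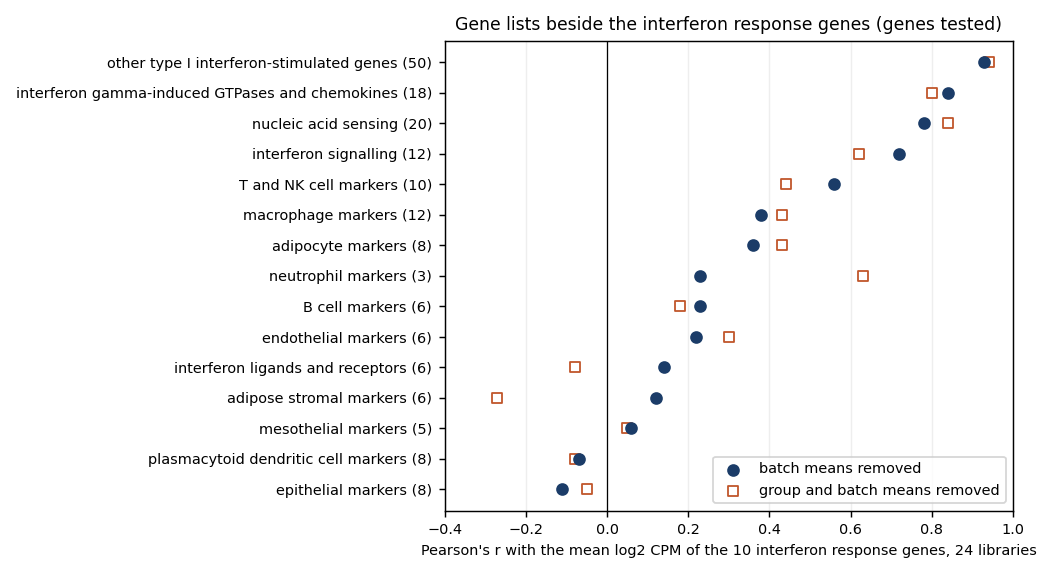
Pearson r over 24 libraries between the mean log2 CPM of the 10 genes and that of each gene list, with batch means removed (filled) and with group and batch means removed (open). The 4 interferon lists other than ligands and receptors lie between 0.72 and 0.93 when batch means are removed, above every cell marker list.

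With batch means removed, the lists that followed the 10 genes most closely were 4 of the 5 interferon lists. The value of r with the mean of the 10 was 0.93 for the other type I interferon-stimulated genes, 0.84 for the GTPases and chemokines, 0.78 for sensing and 0.72 for signalling. It was 0.56 for T and NK cell markers, 0.38 for macrophage markers, 0.36 for adipocyte markers, −0.07 for plasmacytoid dendritic cell markers and −0.11 for epithelial markers. Ligands and receptors had 0.14 and neutrophil markers, 3 of 6 of them tested, 0.23. With group means removed as well, neutrophil markers had 0.63 and signalling genes 0.62. Spearman values for these lists lay between −0.18 and 0.88.

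Some of the genes differed between batches. Batch 2 was higher than batch 1 for Ifit1 (log2 difference 0.77, adjusted p = 0.00437), Ifit2 (0.53, adjusted p = 5.68e-06) and Mx1 (0.59, adjusted p = 0.0359) by edgeR, 3 of the 10, against 51.7% of all genes called in either direction. Isg15, Irf7 and Oasl2 differed by −0.07, −0.04 and 0.02. Each group held 2 libraries of each batch, and batch was a term of the fit.

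Several of the 10 genes have near-identical copies or overlapping neighbours, and their counts are uncertain to that extent. Ifit3 matched Ifit3b at 97.8% of 1700 aligned transcript bases and Oas1a matched Oas1g at 97.6% of 1861. Mx1 matched Mx2 at 94.8% of 920 bases and Isg15 a predicted gene at 95.2% of 482. Ifit1 overlaps Ifit1bl1, Isg15 overlaps Gm46878 and Usp18 overlaps Gm44148 in the RefSeq gene table, and the sources used here do not say whether counting used strand. Mx1 lies at chr16:97447035-97462906, Usp18 at chr6:121245906-121270917 and Oasl2 at chr5:114896926-114912245.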

How the data were processed

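Raw counts per gene were deposited by the authors as 1 table of 27179 genes for 24 libraries, and the submitters' processing notes name featureCounts, limma and the builds GRCm38 and mm10. The log2 FPKM values were deposited by the authors as 1 table of 15764 genes per library; their quartiles are nearly identical across libraries, which is not explained in the labels, so they were used for levels per length and for 1 alternative test. Which aligner and annotation were used is not given in the sources used here, nor are versions. RNA was extracted from whole fat and TruSeq RNA libraries were made, per the labels' protocols. Rows with a gene ID but no symbol held 0.433% of counts and stayed in the tests.

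Counts were tested in R 4.3.3 with edgeR 4.0.16: filterByExpr by group, TMM scaling, and the robust quasi-likelihood test in 1 model of group and batch fitted to the 24 libraries (17 residual degrees of freedom), for 11 comparisons, each adjusted over 17824 genes. Log2 CPM used a prior count of 2, and errors on levels are SD over libraries. Totals differed up to several-fold, so low counts are less precise in the shallow libraries. DESeq2 1.42.0 and limma 3.58.1 served as alternatives. Transcripts of an annotation of the same build were compared with blastn 2.17.0. The fit was tested on simulated counts for Tbet knockout females against control females: of 100 genes changed 2-fold it recovered 48%, and of 100 changed 4-fold 79%, among 17824 genes. The changed genes were drawn at random, and the simulated counts held no batch difference. No library pair correlated above 0.9832, so none was treated as a duplicate.

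The 10 genes and all lists were chosen with earlier results of these data known. The text names the 10 genes, up to 3 called genes per pathway list and comparison with the smallest adjusted p, the receptor genes, Ifnb1, Stat2 and Irf9, the 10 genes most correlated with the mean of the set (mean log2 CPM of at least 1), and Pparg, Tbx21 and Foxp3. Other genes, among them the remaining ligands, Ifit3b and Oas1g, were named after their values were seen. Marker lists for 10 cell classes were written beside them; all of them are in the plot of gene lists. A further gene of that rule is not reported here.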

Additional observations from a re-analysis of the deposited data

Results flagged for a closer look

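In 3 of 60 gene-by-group sets of 4 libraries, the highest or lowest library stood apart from the other 3 by Dixon's test on log2 CPM. Chance gives about 1 in 20, and levels are given here as CPM. Ifit3 was at 88.1 CPM in Tbet knockout female replicate 2, with 41.6, 43.0 and 46.4 CPM in the other 3 libraries of that group. Oasl2 was at 96.7 CPM in the same library, with 50.9, 47.2 and 47.4 CPM in the others. This library has the fewest counts of all, 8345575, and was among the 3 highest for 10 of the 10 genes. Mx1 was at 4.44 CPM in Tbet knockout male replicate 3, with 6.04, 6.18 and 6.39 CPM in the others.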

How the results depend on the processing

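The 10 genes were compared under 11 other planned settings, with each library left out and, added after seeing the data, without the 8 libraries holding over 100 CPM of epithelial markers. In Tbet knockout females over control females the count called was 1 in batch 1 alone, with limma-voom, with limma on log2 FPKM and with DESeq2, against 0 by edgeR with all libraries; over all genes these fits called 619, 474, 340 and 1272, against 218. In the Tbet mean over both sexes it was 1 with limma-voom and with DESeq2 (172 and 315 of all genes, against 5). In control males over females it was 2 in batch 1 alone (Ifit3 and Rsad2; 5812 of all genes, against 4848) and 0 to 1 when each library was left out, with a median of 0.51 using batch 1 alone and of −0.73 using batch 2 alone, against −0.04 with all libraries. In Pparg knockout males over females it was 1 in batch 1 alone (2141 of all genes, against 1564). In Tbet knockout males over females it was 2 with only the compared groups and with limma-voom, 1 with limma on log2 FPKM and with DESeq2 (2479, 2856, 1745 and 2800 of all genes, against 1659), and 0 to 1 when each library was left out, and the median was −0.68 in batch 2 alone. The median of the Pparg difference of effects (males minus females) was 0.48 in batch 2 alone. The cause was not tested. No other count of called genes moved, and other medians moved by less than 0.42, the SD between libraries of the genes' mean log2 CPM.

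Same-numbered replicates of different groups showed no steady pairing: their deviations correlated between −0.64 and 0.59. Libraries of the same group that share a title number across batches were not compared in this way. With a replicate block in place of batch, 0 of 10 were called in all 11 comparisons and the medians were 0.55 in Tbet knockout females, 0.26 in Tbet knockout males, 0.18 in Pparg knockout females, 0.38 in Pparg knockout males and for males over females 0.13 in Pparg knockouts, −0.23 in Tbet knockouts and 0.02 in controls. With 4 libraries per group, changes of 2-fold and more can go undetected. For Tbet knockout females against control females, the test on simulated counts missed about as many 2-fold changes as it found, and some 4-fold ones. Its changed genes were drawn from all genes tested. In that comparison the 10 genes other than Ifit2 had SE of 0.34 to 0.43. The share found among genes of such spread, or in other comparisons, was not measured.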
